A study of Mus musculus with 6 samples.

Results

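The genes described here are those of the amino acid and stress response governed by the transcription factor ATF4, with the serine synthesis enzymes and the cytosolic aminoacyl-tRNA synthetases that belong to it. They were chosen by name from a list of 36 genes, and a probe set was counted when the platform annotation gave it exactly 1 gene symbol that is on the list. By this rule 35 genes with 73 probe sets were measured, among 18193 genes in all, and Pycr1 was not analysed here. RNA came from 344SQ cells, a murine lung cancer line, grown in RPMI medium with serum and transfected with hairpin vectors. The PIK3CA shRNA group (3 arrays) carried a short hairpin RNA against Pik3ca, the gene of the p110-alpha catalytic subunit of phosphoinositide 3-kinase, and the control shRNA group (3 arrays) carried a control hairpin. The labels do not say whether the cells of a group were a clone or a pool, or whether replicates were separate cultures. The p-values therefore describe no more than the spread among these 6 samples, and that spread may be technical.

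ATF4 is translated preferentially when the initiation factor eIF2 is phosphorylated by a stress kinase such as GCN2, which senses uncharged tRNA, or PERK, which senses misfolded protein in the endoplasmic reticulum. With C/EBP-family partners it binds composite promoter elements and raises genes for amino acid synthesis, uptake and tRNA charging. Growth signalling through PI3K, AKT and mTOR complex 1 is also known to raise ATF4 and its metabolic targets in several cell types. Because much of the control of ATF4 is translational, its own transcript is an incomplete readout of its activity.

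Changes below are differences in log2(intensity + 16), PIK3CA shRNA minus control shRNA, from a limma fit over all genes with Benjamini-Hochberg adjustment, and the threshold was an adjusted p of 0.05. Intensities were scaled to a common array median, and each gene was read by its brightest probe set. Pik3ca read 1249, 1237 and 1220 in PIK3CA shRNA cells, against 2450.5, 2324 and 2364 in control cells, a change of -0.94 (limma adjusted p = 0.000762). The array medians lay between 134.6 and 135.0 over all 6 arrays. The 3′ to 5′ signal ratio of the Actb control probe sets was 0.17 to 0.19 on the log2 scale in PIK3CA shRNA cells and 0.10 to 0.18 in control cells. Of 6 epithelial markers 5 were above the median brightness of all genes, among them Krt8, Krt18 and Cdh1. Of 6 lung markers only Sftpb was, while Nkx2-1, Sftpc and Scgb1a1 were dim. Of the 5 measured leukocyte, 6 fibroblast and 6 endothelial markers, 1, 0 and 1 were above that median. The summed intensity of the fibroblast list was 453 to 747 in PIK3CA shRNA cells and 660 to 679 in control cells, which overlap. Only Dcn of this list passed, at -0.75 (limma adjusted p = 0.00918). It was dim, with means of 38 in PIK3CA shRNA cells and 74 in control cells. Pdgfra was at 0.04, and Col1a1, Col1a2, Col3a1 and Lum lay between -0.39 and -0.09. The part of these changes in the results below was not tested. In such bulk RNA, fewer cells of a type and less RNA per cell cannot be told apart.

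Of the 35 measured members, 7 were lower in PIK3CA shRNA cells, 1 was higher and 27 did not pass the test. The lower genes were the stress regulator gene Nupr1, the synthetase genes Aars, Tars and Yars, the transaminase gene Gpt2, the transcription factor gene Atf5 and the serine enzyme gene Psph, and the higher gene was the transcription factor gene Cebpb. The called changes were all under 2-fold, the largest being 1.49-fold. The called share of the members was 22.9%, beside 11.5% of all genes (5.88% higher and 5.62% lower). All 35 members were brighter than the median gene, and 32 lay in the brightest 25% of genes, where 19.1% of genes passed the same test. Against that share of bright genes, a comparison made after the values were seen, the members' share was close to the background. The median change was -0.11 over the members and -0.01 over all genes. Of the 35 members 25 had a negative change, beside 9459 of all 18193 genes. The groups did not overlap in 23 members (65.7%), 16 lower and 7 higher, beside 33.1% of all genes (17.0% lower and 16.1% higher). The share among bright genes alone was not computed, so brightness and list membership cannot be told apart in this count. Atf4 itself and the widely used targets Asns, Chac1, Ddit3 and Trib3 were among the genes that did not pass. Without any 1 of the 6 arrays, 2 or 3 members passed as lower and Cebpb still as higher. Nupr1 and Aars passed each time, while Psph, Tars and Yars never did (limma adjusted p of 0.0652 to 0.0941, 0.0787 to 0.111 and 0.0718 to 0.107).

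**Figure D1:**
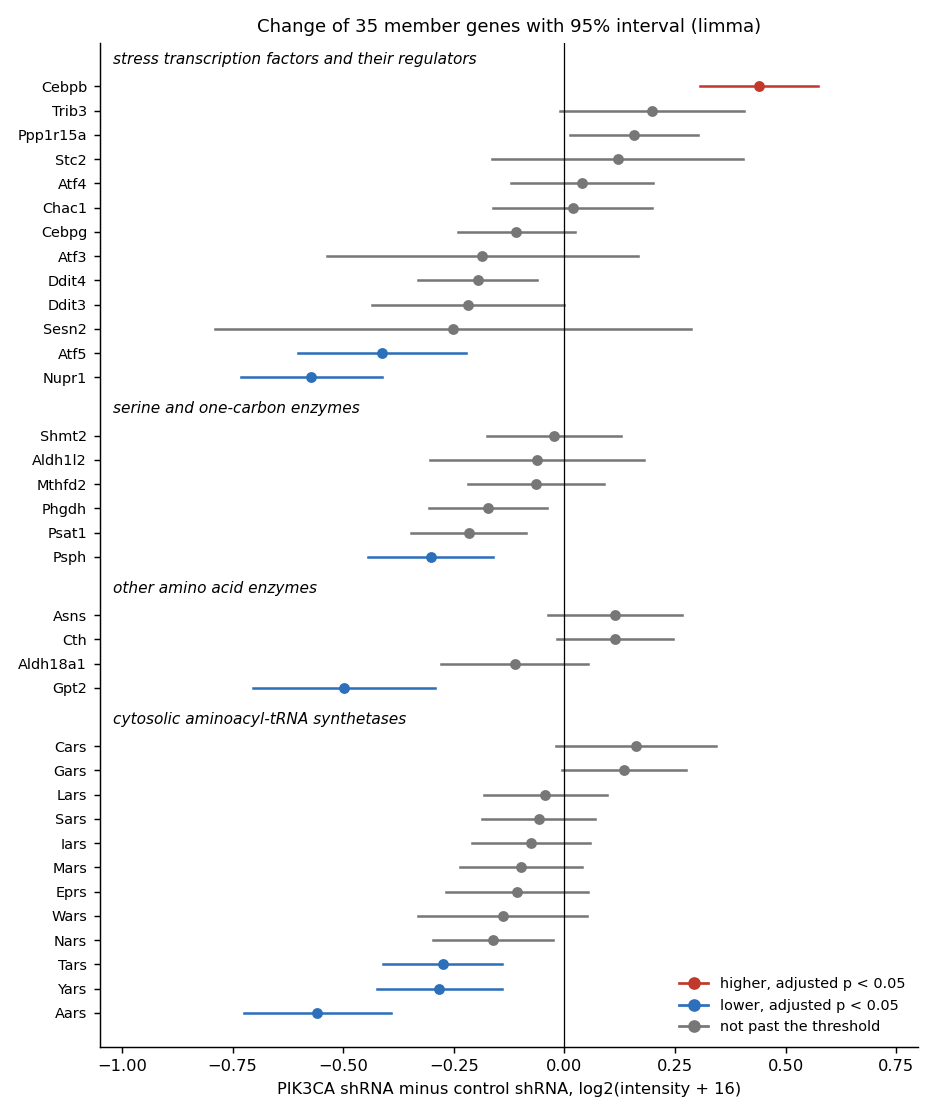
Change of the 35 measured members (x axis, difference in log2(intensity + 16), PIK3CA shRNA minus control shRNA) with its 95% interval from limma, grouped by role. Red marks the gene that passed as higher, blue the 7 that passed as lower and grey the 27 that did not pass. The changes run from -0.57 for Nupr1 to 0.44 for Cebpb. The points of all 6 serine and one-carbon enzymes lie left of 0, but the intervals of Shmt2, Mthfd2 and Aldh1l2 include it.

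Promoter sequence is shown for members because the list is defined by a shared DNA-binding factor. RefSeq promoter windows of build GRCm38.p6 (250 bases before to 50 after the start) were matched for 30 of the 36 members, with 32 windows. The core of the C/EBP-ATF response element, TGATGNAA, was searched on both strands and any overlapping match was counted. It was found in the windows of 11 of these 30 genes (36.7%), beside 4.51% of all 27025 genes with a window and 3.24% of the 14452 tested here. Because the list was chosen through that factor, the higher share is bound up with the choice and is no result of these arrays. The 11 were Asns, Atf3, Chac1, Trib3, Nupr1, Pycr1, Aars, Gars, Iars, Tars and Yars. The element of endoplasmic reticulum stress, CCAAT followed after 9 bases by CCACG, was found in 0 of the 30 members and in 0.137% of all genes. At so low a share, 30 windows cannot show a difference from all genes in the direction of fewer matches. A match describes the letters only, and these windows show no binding. The windows below belong to the 4 lower genes that hold the core and to Asns, Chac1 and Trib3, classical targets that hold it and did not pass the test. Each is written 5′ to 3′ on the gene's strand, and capitals mark the core, which reads as its reverse complement where it lies on the opposite strand.
Nupr1 (chr7:126625421-126625720, minus strand): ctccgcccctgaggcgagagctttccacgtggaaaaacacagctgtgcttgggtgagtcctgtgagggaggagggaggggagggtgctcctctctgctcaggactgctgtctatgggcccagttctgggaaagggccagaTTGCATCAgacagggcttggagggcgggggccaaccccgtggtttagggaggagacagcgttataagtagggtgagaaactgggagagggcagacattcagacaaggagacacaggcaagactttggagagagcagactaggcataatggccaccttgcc
Aars (chr8:111033592-111033891, plus strand): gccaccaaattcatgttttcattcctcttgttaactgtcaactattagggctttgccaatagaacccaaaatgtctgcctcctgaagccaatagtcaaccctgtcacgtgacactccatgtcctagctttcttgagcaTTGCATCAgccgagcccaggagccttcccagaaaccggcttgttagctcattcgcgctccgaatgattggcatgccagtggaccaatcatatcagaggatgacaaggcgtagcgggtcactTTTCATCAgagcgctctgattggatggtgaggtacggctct
Tars (chr15:11399609-11399908, minus strand): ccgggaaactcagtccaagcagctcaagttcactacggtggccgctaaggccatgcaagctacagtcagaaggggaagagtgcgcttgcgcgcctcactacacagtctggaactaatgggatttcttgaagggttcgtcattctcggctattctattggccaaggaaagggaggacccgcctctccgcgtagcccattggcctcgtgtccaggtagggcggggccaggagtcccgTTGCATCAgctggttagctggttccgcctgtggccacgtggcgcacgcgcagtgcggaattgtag
Yars (chr4:129189653-129189952, plus strand): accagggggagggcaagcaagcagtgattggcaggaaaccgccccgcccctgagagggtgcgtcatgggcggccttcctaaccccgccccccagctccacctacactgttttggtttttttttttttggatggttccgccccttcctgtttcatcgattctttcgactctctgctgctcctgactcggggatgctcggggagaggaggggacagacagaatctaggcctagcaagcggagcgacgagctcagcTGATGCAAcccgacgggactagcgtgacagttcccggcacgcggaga
Asns (chr6:7693160-7693459, minus strand): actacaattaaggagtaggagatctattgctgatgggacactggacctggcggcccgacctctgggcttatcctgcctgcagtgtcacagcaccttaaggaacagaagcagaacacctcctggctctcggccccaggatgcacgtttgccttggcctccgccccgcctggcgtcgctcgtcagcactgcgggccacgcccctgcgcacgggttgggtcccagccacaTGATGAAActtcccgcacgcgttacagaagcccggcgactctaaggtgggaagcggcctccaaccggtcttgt
Chac1 (chr2:119350992-119351291, plus strand): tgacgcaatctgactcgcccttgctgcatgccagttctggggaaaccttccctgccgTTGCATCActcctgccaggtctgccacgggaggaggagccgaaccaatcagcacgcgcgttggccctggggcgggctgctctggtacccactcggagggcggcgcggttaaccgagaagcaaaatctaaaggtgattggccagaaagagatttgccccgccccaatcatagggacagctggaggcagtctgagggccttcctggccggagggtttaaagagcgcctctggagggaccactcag
Trib3 (chr2:152344011-152344310, minus strand): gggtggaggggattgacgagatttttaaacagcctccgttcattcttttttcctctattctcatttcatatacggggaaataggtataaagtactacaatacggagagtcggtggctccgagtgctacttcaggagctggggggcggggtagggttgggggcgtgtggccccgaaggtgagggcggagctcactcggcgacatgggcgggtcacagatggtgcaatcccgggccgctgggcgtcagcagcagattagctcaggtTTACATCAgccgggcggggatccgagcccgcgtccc

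The core lay at bases -110 to -103 from the start in Nupr1, at -112 to -105 and again at 9 to 16 in Aars, at -15 to -8 in Tars and at 3 to 10 in Yars. In Asns it was TGATGAAA at -23 to -16, in Chac1 TGATGCAA at -193 to -186 and in Trib3 TGATGTAA at 14 to 21, and apart from those of Yars and Asns all these matches are on the opposite strand. The starts used for Aars and Yars lie inside the RefSeq extents of these genes. Of the 10 measured members with the core, 4 were lower, 0 were higher and their median change was -0.13. Of the 19 measured members with a window and no core, 3 were lower, 1 was higher and the median was -0.11. Over all genes 5.62% were lower and 5.88% higher, and the difference between members with and without the core was not tested. The 8 letters TGATGCAA occurred in Nupr1 (-0.57), Aars (-0.56), Tars (-0.28) and Yars (-0.28), which passed, and in Iars (-0.08), Atf3 (-0.19) and Chac1 (0.02), which did not. Differences between these genes were not tested, and the 95% interval of Atf3 (-0.54 to 0.17) holds the values of Tars and Yars.

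Among the 13 stress transcription factors and their regulators, 2 were lower, 1 was higher and 10 did not pass. Their called share was 23.1%, beside 11.5% of all genes and 19.1% of the bright genes described above. Nupr1 (chr7:126623246-126625470), a small stress-induced chromatin regulator, read 1714, 1659 and 1721 in PIK3CA shRNA cells, against 2641, 2576 and 2385 in control cells. Every PIK3CA shRNA array was below every control array, at 67.0% of the control mean, and the change was -0.57 (SE 0.06, limma adjusted p = 0.00642). Its other probe set fell by 0.58 (limma adjusted p = 0.0178 over all probe sets). Atf5 (chr7:44812256-44816658), a bZIP factor that is itself controlled through eIF2 phosphorylation, read 2486, 2790 and 2534 in PIK3CA shRNA cells, against 3464, 3282 and 3653 in control cells. These groups did not overlap either, and the change was -0.41 (SE 0.08, limma adjusted p = 0.0272).

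Cebpb (chr2:167688915-167690432), which encodes the C/EBP-beta factor that pairs with ATF4, was the gene that moved the other way. It read 3762, 3646 and 3793 in PIK3CA shRNA cells, against 2750.2, 2790.2 and 2700 in control cells. All 3 PIK3CA shRNA arrays were above all 3 control arrays, and the change was 0.44 (SE 0.05, limma adjusted p = 0.00835). Its dimmer probe set also separated the groups, at 867, 778 and 896 in PIK3CA shRNA cells against 668, 647 and 517 in control cells, with a change of 0.47 and a limma adjusted p of 0.104 over all probe sets. Cebpg, the related factor that forms heterodimers with ATF4, was at -0.11 (95% interval -0.24 to 0.02).

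Atf4 read 8303, 8839 and 8759 in PIK3CA shRNA cells, against 8751, 7985 and 8467 in control cells. The groups overlapped, and the change was 0.04 with a 95% interval of -0.12 to 0.20. A second bright Atf4 probe set was separated between the groups at 5852, 5681 and 5782 in PIK3CA shRNA cells against 5095, 5185 and 4714 in control cells, a change of 0.21 (limma adjusted p = 0.188 over all probe sets). The third Atf4 probe set read below 5 on every array. The brighter of the 2 has an identifier ending in _x_at, which by the manufacturer's convention marks probes that can match other transcripts, and the other does not.

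The remaining factors and regulators of this group did not pass the test. Ddit3, which encodes CHOP, the factor tied to cell death in prolonged stress, read 1509, 1414 and 1617 in PIK3CA shRNA cells, against 1738, 1913 and 1640 in control cells. The groups did not overlap, but the change of -0.22 did not pass (limma adjusted p = 0.193). Trib3, a pseudokinase that inhibits AKT and dampens ATF4 signalling, read 2152, 2070.1 and 2253 in PIK3CA shRNA cells, against 1702, 1990 and 1958 in control cells. The PIK3CA shRNA arrays were the higher ones and the change was 0.20 (limma adjusted p = 0.212), with its other probe set at 0.34 (limma adjusted p = 0.0690 over all probe sets). Ppp1r15a, which encodes GADD34, the subunit that directs dephosphorylation of eIF2, also had all 3 PIK3CA shRNA arrays above control and was at 0.16 (limma adjusted p = 0.164).

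Ddit4, which encodes REDD1, an inhibitor of mTOR complex 1, read 2125, 2177 and 2156 in PIK3CA shRNA cells, against 2530.0, 2404 and 2469 in control cells. The arrays separated by group, and the change of -0.20 did not pass (limma adjusted p = 0.0817). Chac1, which degrades glutathione, read 2308, 2513 and 2269 in PIK3CA shRNA cells and 2447, 2341 and 2210.4 in control cells. Those values overlapped, and the 95% interval of the change was -0.16 to 0.20. Atf3, an early stress-induced factor, was at -0.19 and Sesn2, a leucine-binding inhibitor of mTOR complex 1, at -0.25, both with overlapping groups and wide intervals (-0.54 to 0.17 and -0.79 to 0.29). Stc2, a secreted stanniocalcin, was at 0.12 by its brightest probe set and at 0.52 and 0.66 by its other 2, none of which passed or separated the groups.

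**Figure D2:**
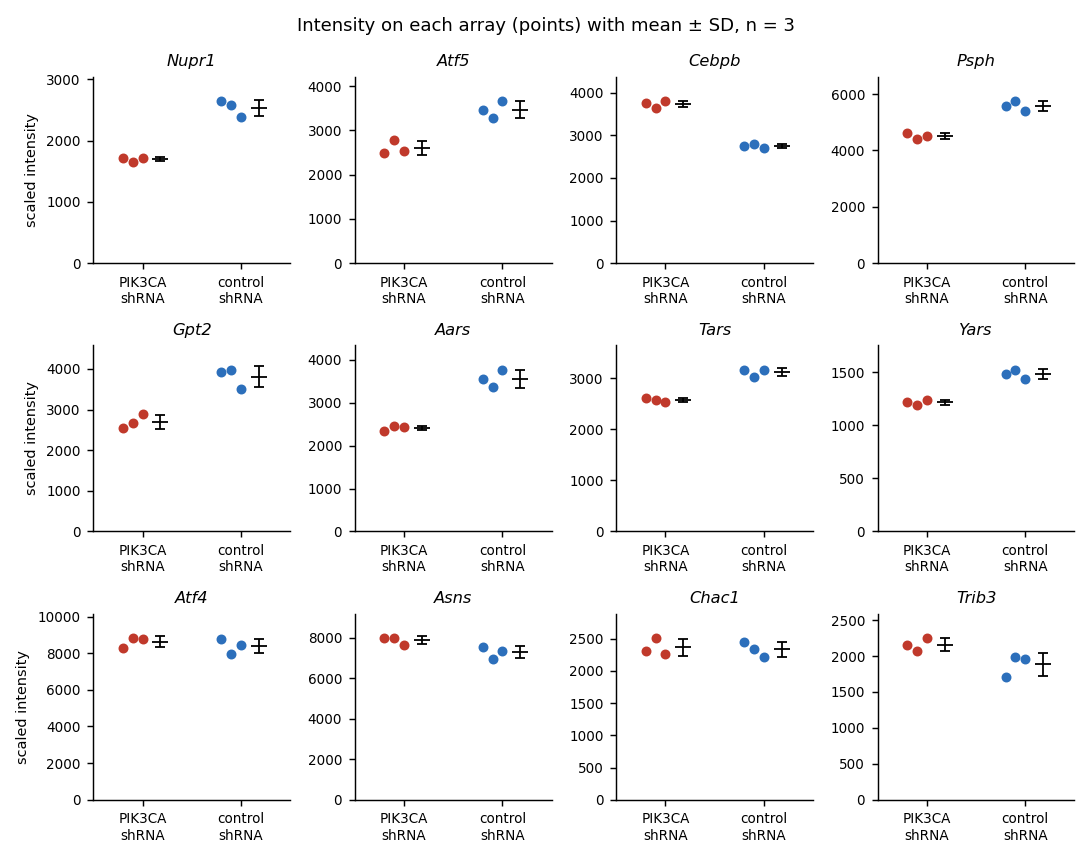
Scaled intensity (y axis, linear, from 0) of 12 members on each of the 3 PIK3CA shRNA arrays (red) and 3 control shRNA arrays (blue), with the mean ± SD in black. The 8 genes that passed have separate groups, with Cebpb higher and the other 7 lower in PIK3CA shRNA cells, while the Atf4 and Chac1 groups overlap.

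All 6 enzymes of serine synthesis and mitochondrial one-carbon metabolism had negative changes, and 1 of them, Psph, passed. Their called share was 16.7%, beside 11.5% of all genes and 19.1% of the bright genes described above. The 3 serine enzymes act in sequence on a glycolytic intermediate. Phgdh, the entry enzyme, read 9618, 9786 and 10007 in PIK3CA shRNA cells, against 10908, 10952 and 11284 in control cells. Psat1, the transaminase of the next step, read 9006, 8908 and 9113 in PIK3CA shRNA cells, against 10266, 10523 and 10621 in control cells. Psph (chr5:129765558-129787443), the phosphatase that releases serine, read 4615, 4416 and 4524 in PIK3CA shRNA cells, against 5586, 5737 and 5407 in control cells. In each of the 3 the PIK3CA shRNA arrays were all below the control arrays, at 88.7%, 86.0% and 81.0% of the control means. Psph fell by 0.30 (SE 0.06, limma adjusted p = 0.0280). The changes of Psat1 (-0.22, limma adjusted p = 0.0571) and Phgdh (-0.17, limma adjusted p = 0.111) did not pass.

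The mitochondrial folate enzymes stayed closer to 0, and none of these 3 separated the groups. Shmt2, which takes the carbon unit from serine, was at -0.02 (95% interval -0.17 to 0.13), and Mthfd2, the dehydrogenase and cyclohydrolase of the next step, at -0.06 (-0.22 to 0.09). Aldh1l2, which oxidises formyl-tetrahydrofolate, was at -0.06 (-0.30 to 0.18). The second brightest Shmt2 probe set was at 0.0016. The dimmest ones, with group means of 118 to 363, disagreed with each other, at -0.55 and 0.63, and neither passed. Of 13 measured genes of the folate, glycine and methionine cycle outside the members, 0 passed the limma test in either direction. Of these 4 had an unadjusted p under 0.05, and the median was -0.08. Over all 18193 genes 11.5% passed, and 4706 had an unadjusted p under 0.05.

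Of the 4 other amino acid enzymes measured, Gpt2 was lower and 3 did not pass. That is a called share of 25%, beside 11.5% of all genes and 19.1% of the brightest 25% of genes. Gpt2 (chr8:85492576-85528902), the mitochondrial alanine transaminase, read 2536, 2658 and 2879 in PIK3CA shRNA cells, against 3933, 3980 and 3516 in control cells. Its PIK3CA shRNA mean was 70.6% of control, and the change was -0.50 (SE 0.08, limma adjusted p = 0.0198). All 4 Gpt2 probe sets were lower on every PIK3CA shRNA array, and 3 of them passed over all probe sets. Asns, which makes asparagine and is a classical ATF4 target, read 7984, 7994 and 7667 in PIK3CA shRNA cells, against 7560.1, 6952 and 7344 in control cells. Here the PIK3CA shRNA arrays were the higher ones, by 0.11 (limma adjusted p = 0.316), and the other Asns probe set gave 0.10. Cth, the cystathionine lyase that yields cysteine, likewise had all PIK3CA shRNA arrays above control, at 0.11 (limma adjusted p = 0.25). Aldh18a1, which starts proline synthesis from glutamate, was at -0.11 with overlapping groups by its brightest probe set. Of its 5 probe sets, 2 separated the groups and 0 passed, with changes from -0.56 to -0.04.

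Among the 12 cytosolic aminoacyl-tRNA synthetases, which attach each amino acid to its tRNA, 3 were lower, 0 were higher and 9 did not pass, with a median of -0.10. The called share was 25%, beside 11.5% of all genes and 19.1% of the brightest 25% of genes. Aars (chr8:111027778-111055569), the alanyl enzyme, read 2343, 2448 and 2431 in PIK3CA shRNA cells, against 3546, 3355 and 3766 in control cells. The groups were far apart, at 67.7% of the control mean, and the change was -0.56 (SE 0.07, limma adjusted p = 0.00790). A second Aars probe set fell by 0.51 (limma adjusted p = 0.0287 over all probe sets). Tars (chr15:11383663-11399658), the threonyl enzyme, read 2612, 2579 and 2523 in PIK3CA shRNA cells, against 3166, 3031 and 3151 in control cells. Yars (chr4:129189734-129219240), the tyrosyl enzyme, read 1214, 1187 and 1240.0 in PIK3CA shRNA cells, against 1485, 1522 and 1434 in control cells. Both separated the groups, with changes of -0.28 (limma adjusted p = 0.0325 for Tars and 0.0337 for Yars), and each has 1 probe set.

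The remaining synthetases had changes between -0.16 and 0.16. Nars (asparaginyl, -0.16), Mars (methionyl, -0.10), Iars (isoleucyl, -0.08) and Sars (seryl, -0.06) were below control on all 3 PIK3CA shRNA arrays without passing. Wars (tryptophanyl, -0.14), Eprs (the joint glutamyl and prolyl enzyme, -0.11) and Lars (leucyl, -0.04) had overlapping groups. These readings are of the brightest probe set. Of the 4 Eprs probe sets, 2 others separated the groups at -0.26 and -0.15, and 0 passed. The other Sars probe set was at 0.02 with overlapping groups. Gars (glycyl, 0.13) and Cars (cysteinyl, 0.16) were above control on all 3 PIK3CA shRNA arrays. Gars read 6393, 6255 and 6363 in PIK3CA shRNA cells, against 5548, 5897 and 5879 in control cells, and Cars read 1873, 1951 and 1723 in PIK3CA shRNA cells, against 1719, 1648 and 1584 in control cells. Neither passed (limma adjusted p = 0.210 and 0.239), and both 95% intervals include 0 (-0.01 to 0.27 for Gars and -0.02 to 0.34 for Cars). Gars lies on chromosome 6, and its change was -0.05 with chromosome medians removed.

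Agreement between probe sets was checked for the 22 members that have more than 1. In 18 of them all probe sets had the same sign, and in Shmt2, Eprs, Sars and Wars both signs occurred. In the fit over all 45037 probe sets, 4.94% passed, and 8 probe sets of 4 members did: 2 of Nupr1, 2 of Aars, 3 of Gpt2 and 1 of Cebpb. The single probe sets of Atf5, Psph, Tars and Yars did not pass there (limma adjusted p = 0.0557, 0.0690, 0.0807 and 0.0807). Another 3 probe sets name a member together with another gene, namely Phgdh with Gm8096 or Gm6756 and Aars with Exosc6, and were left out. The brightest probe set was of the _x_at kind for 6 members, among them Atf4, Phgdh and Asns.

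**Figure D3:**
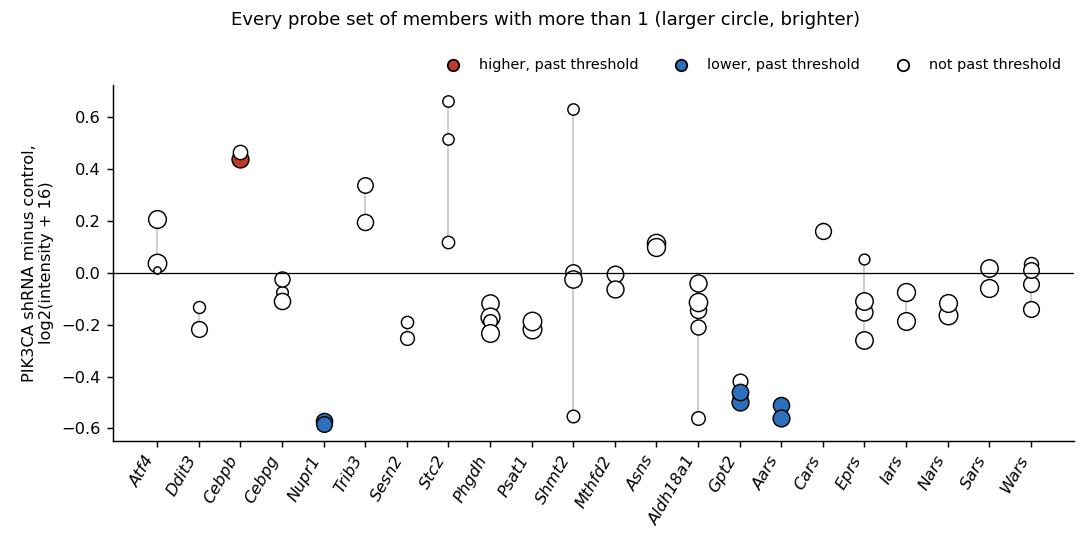
Change of every probe set (y axis, difference in log2(intensity + 16), PIK3CA shRNA minus control shRNA) of the 22 members with more than 1. Circle size grows with intensity, and filled circles passed the threshold over all probe sets. The probe sets of Nupr1, Gpt2, Aars and Cebpb lie close together, while those of Shmt2 spread from -0.55 to 0.63 and those of Stc2 from 0.12 to 0.66.

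Chromosomes 2, 5, 6 and 8 had median changes away from 0, and of the 9 members on them 4 passed, beside 4 of the 26 members elsewhere. Of all genes above the median brightness, 27.2% passed on chromosome 2, 25% on chromosome 5, 25.5% on chromosome 6 and 38.5% on chromosome 8. On the other chromosomes this share ran from 9.49% (chromosome 11) to 22.5% (chromosome 16). Over genes above the median brightness, the median change was 0.20 on chromosome 2, 0.18 on chromosome 6, -0.15 on chromosome 5 and -0.25 on chromosome 8, and between -0.05 and 0.04 on the others. Aars and Gpt2 lie on chromosome 8, Psph on chromosome 5 and Cebpb on chromosome 2, each moving the way of its chromosome. Gpt2 differed by -0.245 from its chromosome's median, and its 10 nearest tested bright genes had a median of -0.29, with 4 of them called lower. Aars differed by -0.30 from that median, and the 10 around it had a median of -0.25 with 2 called lower. Around Cebpb the 10 neighbours had a median of 0.34 with 3 called higher, and Cebpb was 0.25 above the median of its chromosome.

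By contrast Nupr1, Atf5, Tars and Yars lie on chromosomes 7, 7, 15 and 4, whose medians were 0.02, 0.02, -0.03 and -0.03. The neighbours of Nupr1 had a median of 0.06 and those of Atf5 of 0.15, with 0 of 10 called in either direction for both. Asns, Gars and Mthfd2 share chromosome 6, and Trib3 and Chac1 share chromosome 2, and relative to those chromosomes' medians they were at -0.06, -0.04, -0.24, 0.00 and -0.18. After each chromosome's median was subtracted on every array, an alternative added after the data were seen, 3 members were lower and 0 higher: Nupr1 (-0.59, limma adjusted p = 0.00707), Atf5 (-0.43, 0.0233) and Aars (-0.31, 0.0463). Gpt2 (-0.25, limma adjusted p = 0.155), Psph (-0.15, 0.199) and Cebpb (0.24, 0.0543) no longer passed, nor did Tars (-0.25, 0.0509) and Yars (-0.26, 0.0557). The part of the chromosome-wide shifts in the members' changes was not tested beyond these values.

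**Figure D4:**
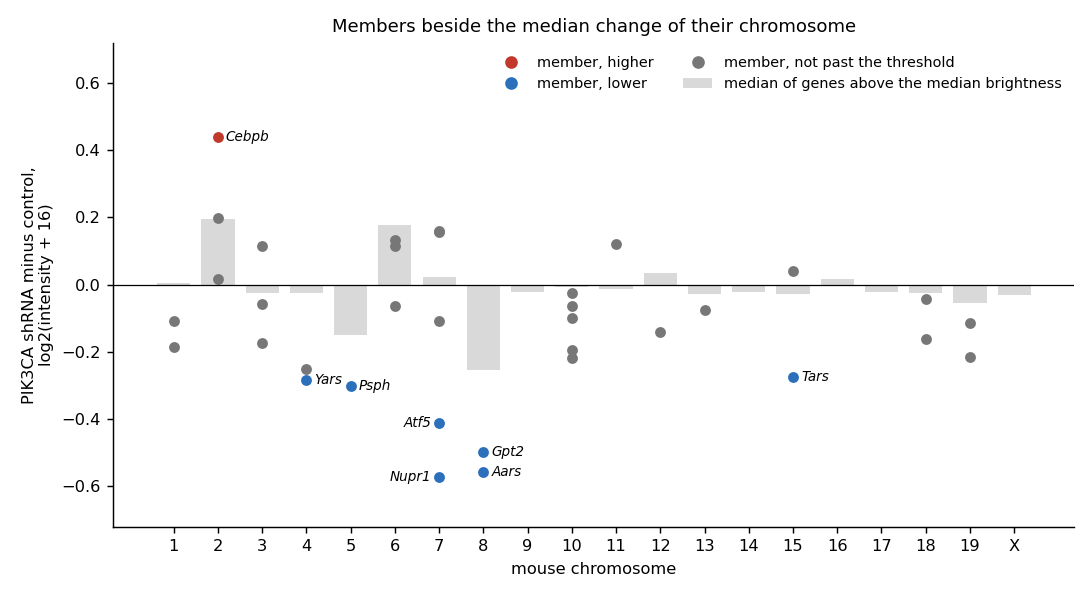
Change of each member (points, labelled where it passed) at its mouse chromosome (x axis), beside the median change of genes above the median brightness on that chromosome (grey bars). The y axis is the difference in log2(intensity + 16), PIK3CA shRNA minus control shRNA. The bars of chromosomes 2, 5, 6 and 8 stand out, and Nupr1, Atf5, Tars and Yars lie below bars that are near 0.

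Other genes of the same pathway were read from 6 lists. Of 17 measured genes for eIF2 kinases, eIF2, its exchange factor eIF2B and its phosphatase, 1 was higher and 1 lower. This called share of 11.8% was close to the 11.5% of all genes. Impact, which encodes an inhibitor of GCN2, read 685 ± 31.8 in PIK3CA shRNA cells and 346 ± 33.3 in control cells (SD, n = 3 each), a change of 0.96 (limma adjusted p = 0.00342). Eif2b3, a subunit of eIF2B, fell by 0.28 (limma adjusted p = 0.0493). The kinase genes Eif2ak4 (GCN2, 0.51, limma adjusted p = 0.0951) and Eif2ak3 (PERK, 0.12, 0.294) were above control on all 3 PIK3CA shRNA arrays without passing. Eif2ak1 (-0.08) and Eif2ak2 (-0.08) had overlapping groups and did not pass either.

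Of 10 measured other cytosolic synthetases and scaffolds of the synthetase complex, 2 were lower and 0 higher, a called share of 20% beside 11.5% of all genes. The 2 lower genes were Farsa (-0.36, limma adjusted p = 0.0336), the alpha subunit of the phenylalanyl enzyme, and the scaffold gene Aimp1 (-0.26, 0.0323). The beta subunit gene Farsb was at 0.19 and did not pass. Of 16 mitochondrial synthetases 12.5% were called, close to the 11.5% of all genes. Wars2 was higher (0.74, limma adjusted p = 0.0463) and Cars2 lower (-0.56, 0.0188). Farsa and Cars2 lie on chromosome 8. Of 13 proline, aspartate and glutamate enzymes 15.4% were called, beside the same 11.5% of all genes. Gpt, the cytosolic alanine transaminase, was higher (0.34, limma adjusted p = 0.0255) while its mitochondrial counterpart Gpt2 was lower. Prodh, the proline dehydrogenase, was lower (-0.27, 0.0363).

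The list of other reported ATF4 targets, many of them transporters, had 2 of 22 measured genes higher and 6 lower, a called share of 36.4% with a median of -0.05, beside 11.5% of all genes and 19.1% of the brightest 25% of genes. The lower ones included Slc7a5, the leucine transporter (-1.01, limma adjusted p = 0.00263), Herpud1, which acts in degradation at the endoplasmic reticulum (-0.67, 0.00571), and the autophagy gene Map1lc3b (-0.34, 0.0169). The 2 higher ones were Gadd45a, a growth arrest gene that p53 and FOXO factors also raise (0.48, limma adjusted p = 0.0104), and Slc7a11 (0.47, 0.0268). Slc7a11 lies on chromosome 3, whose median was -0.02. Of the 6 lower genes 4 (Slc7a5, Herpud1, Map1lc3b and Eif4ebp1) lie on chromosome 8, whose median was -0.25 and where 38.5% of the brighter genes passed. The remaining lower genes, Vldlr (-0.32, limma adjusted p = 0.0293) and Slc6a9 (-0.38, 0.0360), lie on chromosomes 19 and 4, whose medians were -0.05 and -0.03. Gadd45a lies on chromosome 6, whose median was 0.18. The change of Slc7a5 exceeded that of every one of the 35 members in size.

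**Figure D5:**
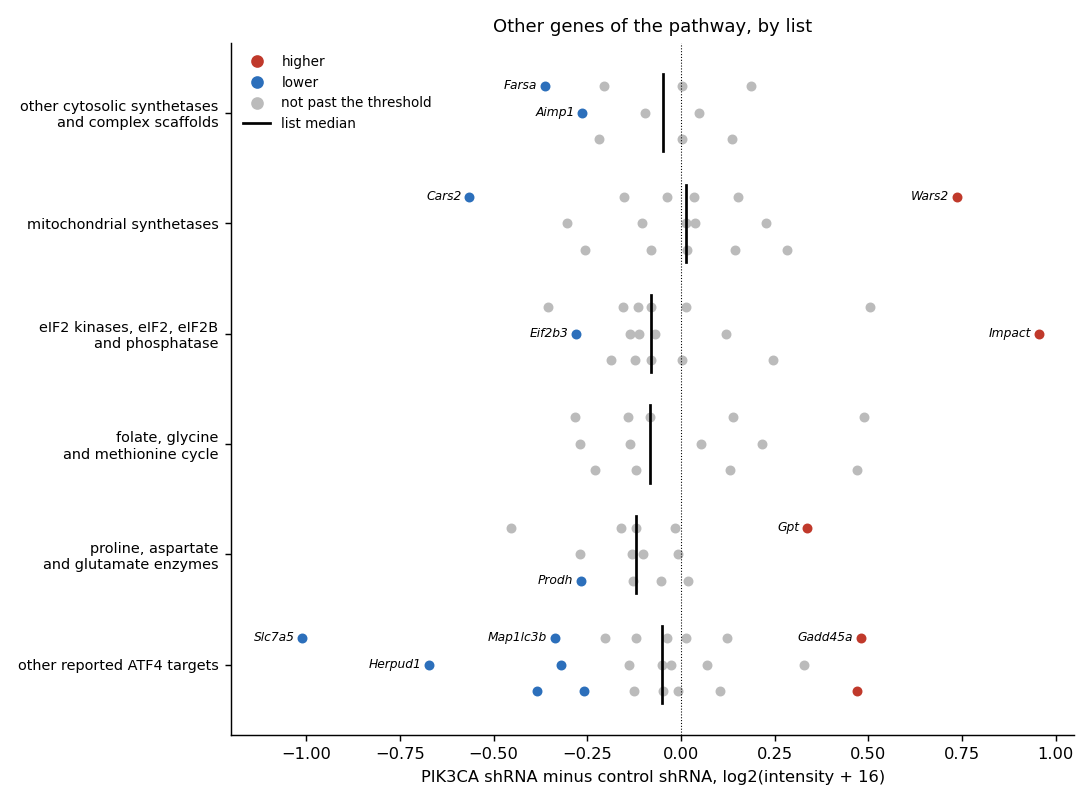
Change of the measured genes of 6 further lists (x axis, difference in log2(intensity + 16), PIK3CA shRNA minus control shRNA), 1 point a gene, spread vertically for legibility. Red points passed as higher and blue as lower, black bars are list medians, and up to 4 called genes a list are labelled. Medians lie between -0.12 and 0.01, with Slc7a5 at -1.01 and Impact at 0.96 the farthest out.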

How the data were processed

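The deposited values are linear intensities, 1 for each probe set on each array (45101 probe sets, 64 of them controls that were left out of the tests), and their minimum and maximum are the same on all 6 arrays. How the authors normalized them is not stated in the labels. Per the labels' protocols, RNA was extracted and biotin-labelled by the manufacturer's procedure. Detection calls were not used here, and precision is limited by the number of arrays.

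Each array was scaled to the same median before log2(intensity + 16) was taken, which lowers the change of dim genes. Of the probe sets, 34945 had 1 symbol in the platform annotation, 932 several and 9160 none. Each gene was read by the probe set with the highest mean log2 value. Of 18193 genes, 18031 matched a RefSeq table of GRCm38.p6 by gene identifier, which gave positions. The comparison used lmFit and eBayes of limma 3.58.1 (R 4.3.3), two-sided and without a replicate block. The fit was tested on simulated data. Alternatives changed the scaling, pseudocount, filter, choice of probe set, array weights, variance prior, threshold, replicate block and arrays used, and 2 were added after the data were seen. Members, lists and motifs were chosen with earlier results of these data known, so counts over them are descriptions. All members were named; of each further list, up to 4 called genes with the smallest adjusted p were, and others named were chosen after their values were seen. Same-numbered replicates of the groups did not deviate together (correlations of 0.05, -0.02 and -0.02), so the numbers were not treated as pairs. Figures were drawn with matplotlib 3.10.9.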

Additional observations from a re-analysis of the deposited data

How the results depend on the processing

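The median change of the members stayed between -0.09 and -0.13 in every alternative for which it was computed, while the counts of members past the threshold depended on the fit. With an intensity trend and a robust prior 3 members were higher and 11 lower (3192 genes called in all), and at an adjusted p of 0.01 only 2 were lower (636 genes). Reading genes by their most variable probe set (interquartile range) gave 3 lower members, as did the fit over all probe sets. Leaving out 1 array gave 2 to 3 lower members and 945 to 1138 called genes, beside 2093 with all arrays; fewer samples enter that fit. Atf5 passed only without PIK3CA shRNA replicate 2 among these (limma adjusted p of 0.0437 to 0.0940), and Gpt2 ranged from 0.0362 to 0.0717.

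The fit with a replicate block, where the numbers show no pairing of the samples, called 0 members higher, 0 lower and 413 genes. Of the alternatives chosen after seeing the data, removal of chromosome medians left 0 higher and 3 lower members. Testing only the brightest 25% of genes gave 5 higher and 13 lower, a share of 56.2% of the members there beside 45.5% of all genes in that fit. Changes near 0 reversed: with 1 array left out, Aldh1l2 ranged from -0.1199 to 0.0095, Shmt2 from -0.0588 to 0.0082 and Chac1 from -0.0261 to 0.0534. Other reversals were Shmt2 (0.0150) as the mean of probe sets and Wars (0.0110) by interquartile range. With chromosome medians removed Asns (-0.066), Chac1 (-0.1779) and Gars (-0.0456) reversed. The causes were not tested. Of the other outcomes of single members under an alternative, 584 kept direction and side of the threshold, 20 gained a call and 49 lost one.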
